A study of Arabidopsis thaliana with 30 samples.

Results

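The 6 auxin receptor genes of the TIR1/AFB family were followed across 30 RNA-seq libraries of dark-grown Arabidopsis thaliana seedlings. The genes were taken by locus: TIR1 (AT3G62980), AFB1 (AT4G03190), AFB2 (AT3G26810), AFB3 (AT1G12820), AFB4 (AT4G24390) and AFB5 (AT5G49980). All 6 were found among the 33602 genes of the deposited tables, and all 6 were tested. The seedlings were 5 days old, with 1 day of light for germination and 4 days of darkness. They belonged to wild type, written Col-O in the labels, or to aba2-3, a mutant line named for ABA2, a dehydrogenase of abscisic acid (ABA) biosynthesis. Both genotypes received either a mock treatment with ethanol or 10 µM indole-3-acetic acid (IAA, the main natural auxin) for 2 h, and Col-O also received 10 µM ABA for 2 h; aba2-3 was not treated with ABA. Every seedling was then divided into root and shoot, which gave 10 groups of 3 libraries: mock root, mock shoot, IAA root and IAA shoot of each genotype, and ABA root and ABA shoot of Col-O.

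TIR1 (TRANSPORT INHIBITOR RESPONSE 1) and its AUXIN SIGNALING F-BOX relatives are the substrate-binding subunits of SCF ubiquitin ligases. Auxin sits between the receptor and an Aux/IAA repressor and strengthens their contact, the repressor is ubiquitinated and degraded, and the auxin response factors it held are released to act on early auxin genes. TIR1 and AFB2 carry much of the transcriptional response of seedling roots, AFB1 is known for very fast non-transcriptional root responses, and AFB4 and AFB5 form the branch that binds the synthetic auxin picloram. The microRNA miR393 is known to target the transcripts of TIR1, AFB2 and AFB3, and of AFB1 less efficiently.

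The miR393 sites are shown first because they divide the family by sequence. The mature microRNA, read from the RefSeq TAIR10.1 assembly, is the same from both of its loci, MIR393A at chr2:16652111-16652132 (plus strand) and MIR393B at chr3:20691657-20691678 (plus strand). Its seed, bases 2 to 8, is in capitals in the first line. In the other lines, each the best match within a receptor's coding sequence, capitals mark bases that do not form a Watson-Crick pair with miR393.
miR393: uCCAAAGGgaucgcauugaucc
TIR1: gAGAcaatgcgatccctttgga
AFB1: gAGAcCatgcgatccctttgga
AFB2: gAaAcaatgcgatccctttgga
AFB3: gAaAcaatgcgatccctttgga
AFB4: ggTtcaaAgAgCtTActttggT
AFB5: ggatcTCtTGTTtccctGAgga

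The sites lie at chr3:23273727-23273748 (minus strand) in TIR1, chr4:1405341-1405362 (minus) in AFB1, chr3:9870237-9870258 (plus) in AFB2 and chr1:4369085-4369106 (minus) in AFB3, each inside a single exon. AFB2 and AFB3 share the same 22 bases, with 2 unpaired positions, whereas TIR1 has 3 differences and AFB1 has 4, each of these counts including 1 G:U pair. None of the differences in these 4 genes falls in the seed. The best matches of AFB4 (chr4:12615419-12615440, minus) and AFB5 (chr5:20335762-20335783, minus) had 7 and 8 differences. Among 27435 genes with a coding sequence, 0.0219% held a match with at most 4 differences, 3.86% with at most 7 and 19.2% with at most 8. A match describes letters only, and no small RNA was measured here.

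As deposited, in TAIR10 coordinates, TIR1 spans chr3:23273116-23276375 (minus), AFB1 chr4:1404887-1407139 (minus), AFB2 chr3:9867845-9870640 (plus), AFB3 chr1:4368760-4371293 (minus), AFB4 chr4:12613076-12616117 (minus) and AFB5 chr5:20333964-20336665 (minus). The coding sequences formed 3 pairs by identity over aligned bases: 82.1% for AFB2 with AFB3, 81.4% for AFB4 with AFB5 and 69.9% for TIR1 with AFB1. No pair of members shared any word of 50 bases, counted as 0 in each of the pairs. Exons of AFB4 overlapped those of AT4G24380, on the opposite strand, over 500 bases, and those of AFB1 and AFB3 overlapped a neighbour over 51 and 63 bases. Whether counting used strand is not given in the sources used here, so the AFB4 values are uncertain to that extent.

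The libraries held 11835730 to 99263091 counts, except aba2-3 IAA shoot replicate 3 with 3871038 counts, and the lowest count of any receptor was 51 (AFB4 in that library). All 12 listed early auxin genes were called higher in each of the 4 IAA comparisons, and all 12 listed ABA-response genes in both ABA comparisons. Over all 22156 genes tested, 586 and 204 were called higher with IAA in Col-O roots and shoots, and 1555 and 311 in aba2-3. With ABA, 1841 and 1103 were called higher in roots and shoots. Both lists were chosen with earlier results of these data known, so these counts describe the treatments and are no independent check. ABA2 mRNA did not pass the test between genotypes in any of 4 matched pairs of groups, so its level does not check the mutant label. Its mean was 26.0 against 22.6 CPM (aba2-3 against Col-O) in mock roots. In IAA shoots it was 8.72 against 13.2 CPM, without overlap (adjusted p = 0.21). Of the 12 ABA-response genes, 6 were called lower in aba2-3 in mock roots and 5 in mock shoots, and 0 higher. Of all genes, 7.19% and 2.63% were called there in either direction. In IAA roots and shoots 2 and 1 of the 12 were called lower and 0 higher, with 1.72% and 1.16% of genes called. Of 10 root markers and 10 shoot markers, none was at 0 over all libraries of an organ. Summed root markers ran from 844 to 1329 CPM in roots and from 312 to 563 CPM in shoots, and summed shoot markers from 173 to 6335 CPM in roots and from 21462 to 76546 CPM in shoots. Shoot markers were high, at 3150 to 6335 CPM, in 5 root libraries (Col-O mock root 3, Col-O IAA root 2, Col-O ABA root 2 and 3, and aba2-3 mock root 1), and at most 1033 CPM in the other roots. These 5, the shallow library and Col-O mock shoot 1, whose shoot marker sum of 21462 CPM was the lowest of the shoots, are the 7 libraries left out where a result is given without them.

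All levels below are CPM, counts scaled to a common library total, on library sizes adjusted by the trimmed mean of M-values (TMM). RPKM is that value per kilobase of exon. The TMM factors ran from 0.849 (Col-O ABA shoot 3) to 1.146 (Col-O mock root 2), so the levels differ from the deposited CPM, unequally between groups. Statements on overlap of libraries hold for the TMM scale and can differ on the deposited one. In bulk tissue, fewer cells of a type and less RNA per cell cannot be told apart. Every receptor was detected in all 30 libraries. Per length, AFB1 was the most abundant in mock-treated Col-O, at 34.3 ± 4.20 RPKM in roots and 49.5 ± 3.66 RPKM in shoots (mean ± SD, n = 3 here and throughout). AFB4 was the least abundant in every group, between 3.82 and 5.65 RPKM on average. In Col-O mock roots AFB2 (26.5 ± 4.74 RPKM) and TIR1 (23.2 ± 2.64 RPKM) followed AFB1, ahead of AFB3 (16.3 ± 2.52 RPKM) and AFB5 (15.2 ± 2.28 RPKM). In Col-O mock shoots the order was AFB1, TIR1 (39.6 ± 6.73 RPKM), AFB2 (35.0 ± 2.17 RPKM), AFB5 (33.5 ± 4.54 RPKM), AFB3 (22.2 ± 2.29 RPKM) and AFB4. AFB5 thus stood beside AFB3 in the root and beside AFB2 in the shoot.

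The members also differed in how far their levels moved over the 10 groups. AFB1 varied most, by 3.61 times between its highest group mean (102 ± 7.54 CPM, Col-O mock shoot) and its lowest (28.3 ± 4.53 CPM, aba2-3 IAA root). TIR1 varied 2.91 times, from 92.8 ± 15.8 CPM in Col-O mock shoots to 31.9 ± 3.18 CPM in aba2-3 IAA roots. AFB5 varied 2.67 times, from 82.2 ± 11.1 to 30.8 ± 7.31 CPM, between the same groups as TIR1. AFB3 varied 2.07 times, with its lowest mean of 24.9 ± 4.65 CPM in Col-O ABA roots, AFB2 1.64 times and AFB4 1.48 times. When the groups were ordered by mean, the library ranges of most neighbours overlapped. For AFB1 the ranges were separate below Col-O mock shoot, between aba2-3 IAA shoot (66.9 ± 4.58 CPM) and Col-O IAA root (43.3 ± 4.04 CPM), and between Col-O IAA root and aba2-3 IAA root. For TIR1 they were separate below Col-O ABA shoot (86.4 ± 4.05 CPM) and between Col-O mock root (54.3 ± 6.19 CPM) and Col-O IAA root (37.1 ± 3.04 CPM). For AFB2, AFB3, AFB4 and AFB5 every neighbour in the order overlapped the next.

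**Figure D1:**
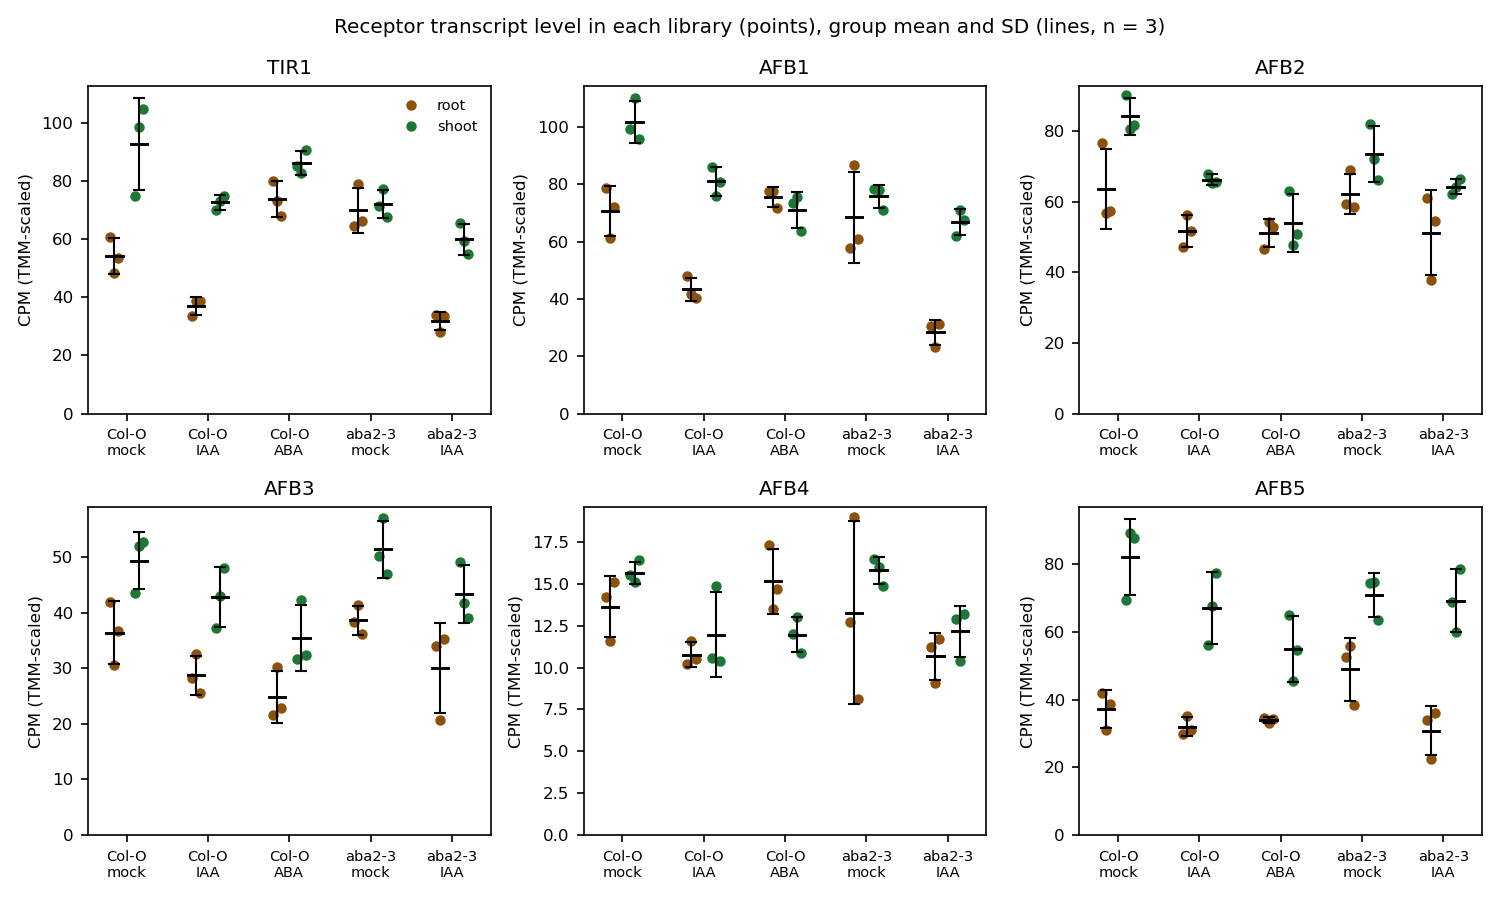
Receptor transcript levels in CPM on TMM-scaled library sizes, by gene, for Col-O and aba2-3 under mock, IAA or ABA; points are the 3 libraries of a group (brown root, green shoot) and lines the mean and SD. TIR1 and AFB1 have their lowest values in the IAA roots of both genotypes, and AFB5 has its lowest values in roots.

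IAA treatment asked how the receptors' own transcripts stood after 2 h of the ligand. In roots, TIR1 and AFB1 were lower after IAA in both genotypes, AFB5 was lower in aba2-3, and AFB2, AFB3 and AFB4 did not pass the test. In Col-O roots 2 of 6 receptors were called lower, with 5.57% of the 22156 genes tested called in either direction and 2.92% called lower. In aba2-3 roots 3 of 6 were called lower, against 11.8% of genes called and 4.82% called lower. All 6 fitted changes were below 0 in each of these comparisons, with a median log2 change of -0.34 in Col-O and -0.51 in aba2-3, where the medians of all genes were -0.01 and 0.

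TIR1 stood at 60.8, 48.5 and 53.6 CPM in the 3 Col-O mock roots and at 33.6, 38.9 and 38.9 CPM in the 3 Col-O IAA roots. Its levels in aba2-3 were 64.7, 79.0 and 66.3 CPM in mock roots and 33.9, 28.2 and 33.6 CPM in IAA roots. Every IAA root was below every mock root of its genotype, without overlap. On the log2 scale TIR1 fell by 0.55 ± 0.13 (SE) in Col-O (1.46-fold, adjusted p = 0.011, edgeR quasi-likelihood F test with Benjamini-Hochberg adjustment over all genes, as for every adjusted p here not credited to DESeq2). In aba2-3 it fell by 1.13 ± 0.13 (2.19-fold, adjusted p = 2.2e-06). The Col-O call was lost when mock root 1 (adjusted p = 0.083) or IAA root 1 (adjusted p = 0.071) was left out.

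AFB1, the closest relative of TIR1, stood at 78.6, 61.4 and 72.1 CPM in Col-O mock roots and at 48.0, 41.6 and 40.5 CPM in Col-O IAA roots. In aba2-3 it was at 57.9, 86.8 and 60.9 CPM in mock roots and at 30.6, 23.1 and 31.2 CPM in IAA roots. The groups did not overlap in either genotype, although mock root 2 of aba2-3 was well above the other mock roots. AFB1 fell by 0.71 ± 0.14 on the log2 scale in Col-O (1.63-fold, adjusted p = 0.0032) and by 1.27 ± 0.14 in aba2-3 (2.42-fold, adjusted p = 1.9e-06). Without the 7 libraries the log2 changes in Col-O were -0.61 for TIR1 (adjusted p = 0.025) and -0.68 for AFB1 (adjusted p = 0.044), and in aba2-3 they were -1.19 (adjusted p = 1e-05) and -1.38 (adjusted p = 2.1e-05). Both genes kept their calls in both genotypes without these libraries.

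AFB5 was the third receptor called in aba2-3 roots. Its levels there were 52.6, 55.9 and 38.4 CPM in mock roots and 34.0, 22.5 and 36.0 CPM after IAA. The lowest mock root lay just above the highest IAA root. AFB5 fell by 0.66 ± 0.18 on the log2 scale (adjusted p = 0.017), but the call was lost without the 7 libraries (adjusted p = 0.062), in a fit of the 2 groups alone (adjusted p = 0.11), and without mock root 1 (adjusted p = 0.06), mock root 2 (adjusted p = 0.076) or IAA root 2 (adjusted p = 0.11). In Col-O roots its log2 change was -0.22 ± 0.18 (adjusted p = 0.57), with overlapping ranges of 31.0 to 41.9 CPM in mock and 29.8 to 35.2 CPM in IAA roots.

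AFB2 and AFB3 had smaller fitted changes than TIR1 and AFB1, but members were not tested against each other. The AFB2 and AFB3 changes did not pass the test. AFB2 averaged 63.6 ± 11.4 CPM in mock and 51.7 ± 4.53 CPM in IAA roots of Col-O (log2 -0.30 ± 0.15, adjusted p = 0.28), and 62.2 ± 5.74 against 51.2 ± 12.0 CPM in aba2-3 (log2 -0.28 ± 0.15, adjusted p = 0.24). AFB3 averaged 36.4 ± 5.62 and 28.8 ± 3.48 CPM in Col-O (log2 -0.34 ± 0.18, adjusted p = 0.31), and 38.6 ± 2.63 and 30.0 ± 8.10 CPM in aba2-3 (log2 -0.36 ± 0.18, adjusted p = 0.20). AFB4, in counts that may include the antisense neighbour, averaged 13.6 ± 1.79 and 10.8 ± 0.724 CPM in Col-O (log2 -0.34 ± 0.21, adjusted p = 0.39). In aba2-3 roots that neighbour, AT4G24380, rose from 9.45 ± 2.24 to 32.0 ± 18.4 CPM after IAA (log2 1.75 ± 0.28, adjusted p = 0.00021), while AFB4 was at 13.3 ± 5.46 and 10.7 ± 1.39 CPM (log2 -0.31 ± 0.21, adjusted p = 0.37). AT4G03180, which overlaps AFB1, also rose there (log2 1.08 ± 0.22, adjusted p = 0.0016), while AFB1 fell. The part of shared reads in the AFB4 and AFB1 values was not tested.

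In shoots, no receptor was called after IAA by edgeR or by DESeq2. In Col-O shoots, where 2.22% of genes were called, 0 of 6 receptors passed the adjusted test and 3 had an unadjusted p under 0.05: TIR1 (log2 -0.35 ± 0.13, unadjusted p = 0.01), AFB1 (log2 -0.33 ± 0.14, unadjusted p = 0.027) and AFB2 (log2 -0.35 ± 0.15, unadjusted p = 0.029). In aba2-3 shoots, with 1.92% of genes called, 0 of 6 passed and 1 had an unadjusted p under 0.05, TIR1 (log2 -0.26 ± 0.13, unadjusted p = 0.049). All fitted changes were below 0 in both genotypes, with medians of -0.34 in Col-O and -0.22 in aba2-3, while 54.1% and 58.8% of all genes were below 0. The aba2-3 value of AFB5 was only -0.04 ± 0.18, and it ran from -0.1 to 0.1 over the other settings and left-out libraries.
TIR1 was at 74.9, 98.9 and 105 CPM in Col-O mock shoots and 70.0, 73.4 and 74.8 CPM in Col-O IAA shoots, which separated the groups by the narrow gap between 74.8 and 74.9 CPM. The lowest mock shoot, replicate 1, is the library with the lowest shoot markers. AFB1 was at 99.4, 110 and 96.0 CPM against 86.2, 76.0 and 81.0 CPM, again without overlap.

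The root and shoot responses to IAA were compared directly as a difference of log2 changes. In aba2-3 the root decline exceeded the shoot decline for 2 of 6 receptors, where 2.19% of genes were called and 1.05% called lower. The difference was -0.87 ± 0.18 for TIR1 (adjusted p = 0.011) and -1.09 ± 0.20 for AFB1 (adjusted p = 0.0041), and both calls were kept when any of the 12 libraries involved was omitted. For AFB5 it was -0.62 ± 0.25 (adjusted p = 0.23). In Col-O 0 of 6 receptors were called, 0 had an unadjusted p under 0.05 and 0 were called by DESeq2, with 0.997% of genes called; the differences there were -0.20 ± 0.18 for TIR1 and -0.37 ± 0.20 for AFB1.

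The IAA response was also compared between genotypes. In roots the difference of log2 changes, aba2-3 minus Col-O, was -0.58 ± 0.18 for TIR1 (adjusted p = 0.10) and -0.57 ± 0.20 for AFB1 (adjusted p = 0.16). Neither passed the test, both had an unadjusted p under 0.05, and DESeq2 called TIR1 (adjusted p = 0.024). AFB5, which had been called lower after IAA in aba2-3 roots and not in Col-O roots, gave -0.45 ± 0.25 (adjusted p = 0.43). Of all genes, 1.32% were called in that comparison. In shoots 0 of 6 were called by either tool and 0 had an unadjusted p under 0.05, where 0.00451% of genes were called. The genotype comparisons of the IAA response use the same mock libraries as the comparisons above.

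**Figure D2:**
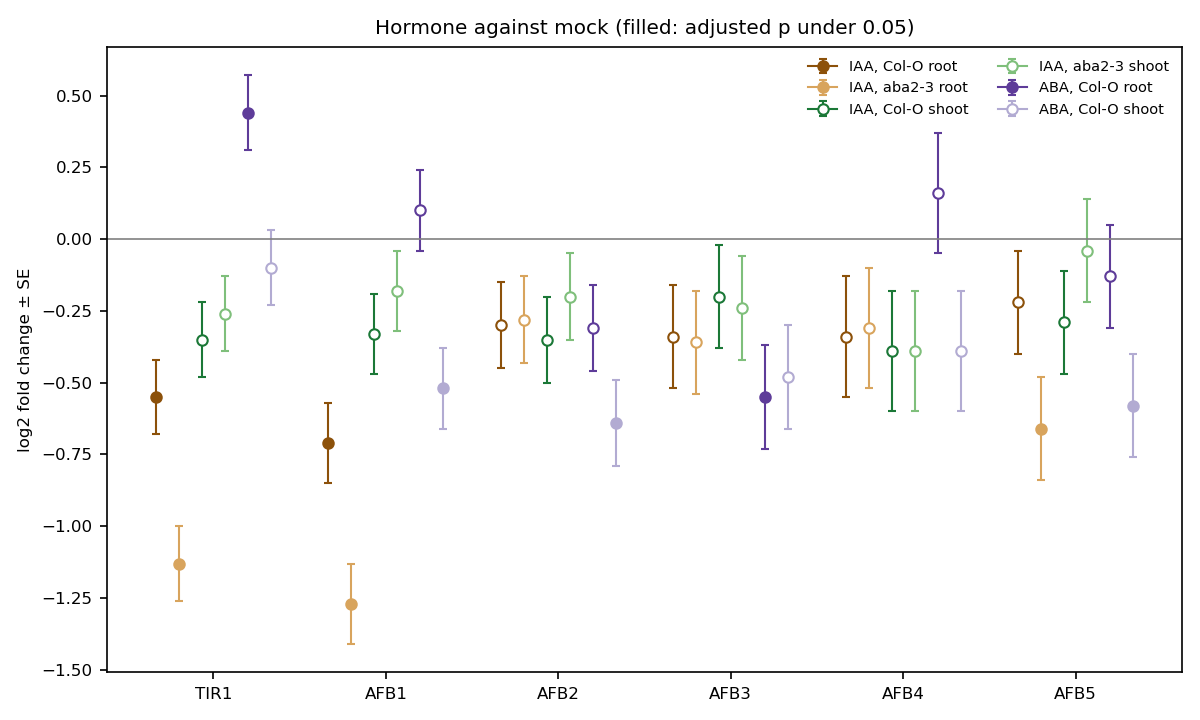
Fitted log2 fold change (± SE) of each receptor after IAA or ABA against the mock group of the same genotype and organ; filled points have an adjusted p under 0.05. TIR1 and AFB1 lie lowest in IAA roots (-1.13 and -1.27 in aba2-3), and TIR1 is the only receptor with a filled point above 0, in ABA roots of Col-O (0.44).

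After ABA treatment of Col-O, TIR1 was higher and AFB3 lower in roots, and AFB1, AFB2 and AFB5 were lower in shoots. The Col-O ABA and IAA comparisons share their mock libraries, so their values are set side by side and not correlated. In roots, 1 of 6 receptors was called higher (TIR1) and 1 lower (AFB3), with 15.7% of genes called, 8.31% higher and 7.4% lower. In shoots, 3 of 6 were called lower (AFB1, AFB2 and AFB5), with 9.65% of genes called and 4.67% called lower. The median log2 change of the receptors was -0.02 in roots and -0.50 in shoots, against -0.03 and -0.07 for all genes.

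The TMM factors were 0.94 to 1.031 in the ABA roots and 1.121 to 1.146 in the mock roots of Col-O. On that scale TIR1 reached 80.3, 73.3 and 68.0 CPM in the 3 ABA roots, all above the mock roots at 48.5 to 60.8 CPM. It was higher by 0.44 ± 0.13 on the log2 scale (1.36-fold, adjusted p = 0.016), where IAA had given -0.55 in the same organ. Summed shoot markers were at 330, 6335 and 3726 CPM in ABA roots 1, 2 and 3, and their part in the result was not tested. Without the 7 libraries the log2 change was 0.58 (adjusted p = 0.043), with a single ABA root left, which is assumed to vary like the other groups. The call was lost with library totals in place of TMM (log2 0.24, adjusted p = 0.20), a scaling that moved the median of all genes in this comparison by -0.21. It was also lost in a fit of the 2 groups alone (adjusted p = 0.054) and without mock root 2 (adjusted p = 0.11) or ABA root 1 (adjusted p = 0.06).

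AFB3 was at 21.6, 30.2 and 22.8 CPM in ABA roots and at 41.9, 30.6 and 36.7 CPM in mock roots. The groups were separated by the gap between ABA root 2 and mock root 2 only. The log2 change was -0.55 ± 0.18 (adjusted p = 0.036), and the call was lost under 4 of 8 other settings, including RLE size factors (adjusted p = 0.054) and the fit without the 7 libraries (log2 -0.72, adjusted p = 0.12). It was also lost without mock root 1 (adjusted p = 0.18), mock root 3 (adjusted p = 0.075), ABA root 1 (adjusted p = 0.20) or ABA root 3 (adjusted p = 0.18). AFB1 was at 77.7, 77.7 and 71.7 CPM in ABA roots, within the spread of the mock roots (log2 0.10 ± 0.14, adjusted p = 0.72). AFB2 (log2 -0.31 ± 0.15, adjusted p = 0.18; called lower with library totals, log2 -0.52, adjusted p = 0.031), AFB4 (log2 0.16 ± 0.21, adjusted p = 0.70) and AFB5 (log2 -0.13 ± 0.18, adjusted p = 0.71) did not pass the test.

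In ABA shoots AFB2 was at 63.1, 47.6 and 50.8 CPM, below the mock shoots at 90.1, 80.5 and 81.8 CPM. It fell by 0.64 ± 0.15 on the log2 scale (1.56-fold, adjusted p = 0.0055). AFB1 was at 73.6, 75.6 and 63.8 CPM against 99.4, 110 and 96.0 CPM, a fall by 0.52 ± 0.14 (adjusted p = 0.017). Neither gene's groups overlapped.
AFB5 was at 65.0, 45.4 and 54.8 CPM against 69.4, 89.3 and 87.9 CPM and fell by 0.58 ± 0.18 (adjusted p = 0.04). Without the 7 libraries, among them mock shoot 1, AFB1 (adjusted p = 0.061) and AFB2 (adjusted p = 0.052) lost their calls and AFB5 kept its call (adjusted p = 0.046). A fit of the compared groups alone kept none of the 3 calls, with adjusted p of 0.065 for AFB2, 0.11 for AFB1 and 0.14 for AFB5. The AFB5 call was also lost with RLE size factors (adjusted p = 0.051), no filter on low counts (adjusted p = 0.076) and a mean count of at least 20 (adjusted p = 0.065). Leaving out ABA shoot 2 or ABA shoot 3 ended the AFB2 call (adjusted p = 0.07 and 0.061) and the AFB5 call (adjusted p = 0.25 and 0.16), and AFB5 was also lost without mock shoot 2 (adjusted p = 0.19) or mock shoot 3 (adjusted p = 0.18). AFB1 was lost without mock shoot 2 (adjusted p = 0.12) or any one of the ABA shoots (adjusted p of 0.05 to 0.16). TIR1 in ABA shoots (85.3, 83.0 and 90.9 CPM) lay within the range of the mock shoots (log2 -0.10 ± 0.13, adjusted p = 0.69), and AFB3 (log2 -0.48 ± 0.18, adjusted p = 0.095; called lower with library totals, log2 -0.61, adjusted p = 0.033) and AFB4 (log2 -0.39 ± 0.21, adjusted p = 0.27) were not called.

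The difference between the ABA responses of root and shoot was tested as well, where 1.72% of genes were called. It was 0.55 ± 0.18 for TIR1 (adjusted p = 0.12) and 0.62 ± 0.20 for AFB1 (adjusted p = 0.11), so 0 of 6 receptors passed with edgeR; 2 had an unadjusted p under 0.05, and DESeq2 called these 2, TIR1 (adjusted p = 0.036) and AFB1 (adjusted p = 0.027). Without Col-O mock shoot 1, TIR1 was also called by edgeR (0.70, adjusted p = 0.023). AFB3, called in the root, had a difference of -0.07 ± 0.25 (adjusted p = 0.93).

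Without hormone, no receptor was called between aba2-3 and Col-O seedlings by edgeR. In mock roots 0 of 6 were called, with 7.19% of genes called, and in mock shoots 0 of 6, with 2.63% called; in each case 2 receptors had an unadjusted p under 0.05. In mock roots these were TIR1, at 70.0 ± 7.82 CPM in aba2-3 and 54.3 ± 6.19 CPM in Col-O (log2 0.37 ± 0.13, adjusted p = 0.082), and AFB5 (log2 0.39 ± 0.18, adjusted p = 0.20). In mock shoots they were TIR1 (72.2 ± 4.93 against 92.8 ± 15.8 CPM, log2 -0.36 ± 0.13, adjusted p = 0.14) and AFB1 (75.8 ± 4.02 against 102 ± 7.54 CPM, log2 -0.43 ± 0.14, adjusted p = 0.11). The libraries of the genotypes did not overlap for TIR1 in mock roots (64.7 to 79.0 CPM in aba2-3, 48.5 to 60.8 CPM in Col-O). Nor did they for AFB1 in mock shoots (71.2 to 78.3 against 96.0 to 110 CPM). They overlapped for AFB5 in mock roots and TIR1 in mock shoots. DESeq2 called TIR1 in mock roots (adjusted p = 0.022) and TIR1 (adjusted p = 0.048) and AFB1 (adjusted p = 0.026) in mock shoots. The fitted genotype difference of TIR1 was above 0 in the root and below 0 in the shoot; the difference between them was not tested.

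After IAA, AFB1 was the receptor that separated the genotypes in roots, as the 1 of 6 called lower in aba2-3, where 1.72% of genes were called and 0.654% called lower. All 3 aba2-3 IAA roots (23.1 to 31.2 CPM) were below the Col-O IAA roots (40.5 to 48.0 CPM). The log2 difference was -0.61 ± 0.14 (1.53-fold, adjusted p = 0.021), and it was of the same size without the 7 libraries (log2 -0.61) but no longer called (adjusted p = 0.064). It was also lost in a fit of the 2 groups alone (adjusted p = 0.15), with no filter on low counts (adjusted p = 0.061), and without Col-O IAA root 1 (adjusted p = 0.11), Col-O IAA root 2 (adjusted p = 0.062) or aba2-3 IAA root 2 (adjusted p = 0.13). TIR1 in the same comparison gave -0.22 ± 0.13 (adjusted p = 0.49). In IAA shoots 0 of 6 were called by edgeR or DESeq2, 1 had an unadjusted p under 0.05 (TIR1, log2 -0.27 ± 0.13, unadjusted p = 0.043), and 1.16% of genes were called.

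Most receptors were lower in roots than in shoots, and the fitted difference varied with the member and the treatment. In Col-O mock, 5 of 6 were called lower in the root, with 49.9% of genes called and 25.6% called lower. AFB5 differed most. Its roots stood at 41.9, 31.0 and 38.8 CPM and its shoots at 69.4, 89.3 and 87.9 CPM, far apart, for a log2 difference of -1.14 ± 0.18 (2.21-fold, adjusted p = 9.5e-06). TIR1 followed with -0.77 ± 0.13 (adjusted p = 1.6e-05), AFB1 with -0.53 ± 0.14 (adjusted p = 0.0028), AFB3 with -0.44 ± 0.18 (adjusted p = 0.043) and AFB2 with -0.40 ± 0.15 (adjusted p = 0.027), while AFB4 was not called (-0.20 ± 0.21, adjusted p = 0.45). The AFB3 call was lost with the replicate number as a block (adjusted p = 0.053), and those of AFB2 and AFB3 without the 7 libraries (adjusted p = 0.24 and 0.053). With library totals, which moved the median of all genes here by 0.22, AFB1 (adjusted p = 0.1), AFB2 and AFB3 lost their calls. Without mock root 2 neither AFB2 (adjusted p = 0.12) nor AFB3 (adjusted p = 0.19) was called, and likewise without mock root 3 (adjusted p = 0.11 and 0.08). AFB2 was also lost without mock shoot 1 (adjusted p = 0.057), and AFB3 without mock shoot 2 (adjusted p = 0.093) or 3 (adjusted p = 0.092).

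AFB5 was the receptor called lower in the root in all 5 organ comparisons. Its log2 difference was -1.07 ± 0.18 in Col-O IAA, -1.16 ± 0.18 in aba2-3 IAA, -0.70 ± 0.18 in Col-O ABA and -0.54 ± 0.18 in aba2-3 mock. In aba2-3 mock, where 53.9% of genes were called and 27.7% called lower, it was the 1 receptor of 6 called (adjusted p = 0.014), and leaving out aba2-3 mock root 3 ended that call (adjusted p = 0.083). Without mock root 2 of aba2-3, AFB1 (adjusted p = 0.039) and AFB4 (adjusted p = 0.013) were called lower as well, and without mock shoot 3 AFB3 was (adjusted p = 0.048). TIR1 there was at 70.0 ± 7.82 CPM in the root and 72.2 ± 4.93 CPM in the shoot (log2 -0.05 ± 0.13, adjusted p = 0.79). In Col-O mock it had differed 1.71-fold between the organs. Whether its organ difference varied between the mock-treated genotypes was not tested.
After IAA, 5 of 6 receptors in Col-O (56.1% of genes called, 27.8% lower) and 4 of 6 in aba2-3 (54.5% called, 25.5% lower) were lower in the root. TIR1 and AFB1 then differed by -0.97 ± 0.13 and -0.90 ± 0.14 in Col-O and by -0.91 ± 0.13 and -1.24 ± 0.14 in aba2-3. The AFB2 call in Col-O IAA (-0.36 ± 0.15, adjusted p = 0.046) was lost with no filter on low counts and with library totals. It was also lost without IAA root 1, IAA root 3 or IAA shoot 1. The AFB3 calls after IAA were lost with library totals in both genotypes, and in aba2-3 also without IAA root 2. After ABA, 2 of 6 were called lower in the root, AFB3 (-0.51 ± 0.18, adjusted p = 0.019) and AFB5 (adjusted p = 0.0021), with 52.6% of genes called and 26.1% called lower; the AFB3 call was lost without ABA root 1 (adjusted p = 0.072), ABA root 3 (adjusted p = 0.058) or ABA shoot 2 (adjusted p = 0.097). TIR1 (-0.23 ± 0.13, adjusted p = 0.14) and AFB1 (0.09 ± 0.14, adjusted p = 0.61) were not called after ABA.

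**Figure D3:**
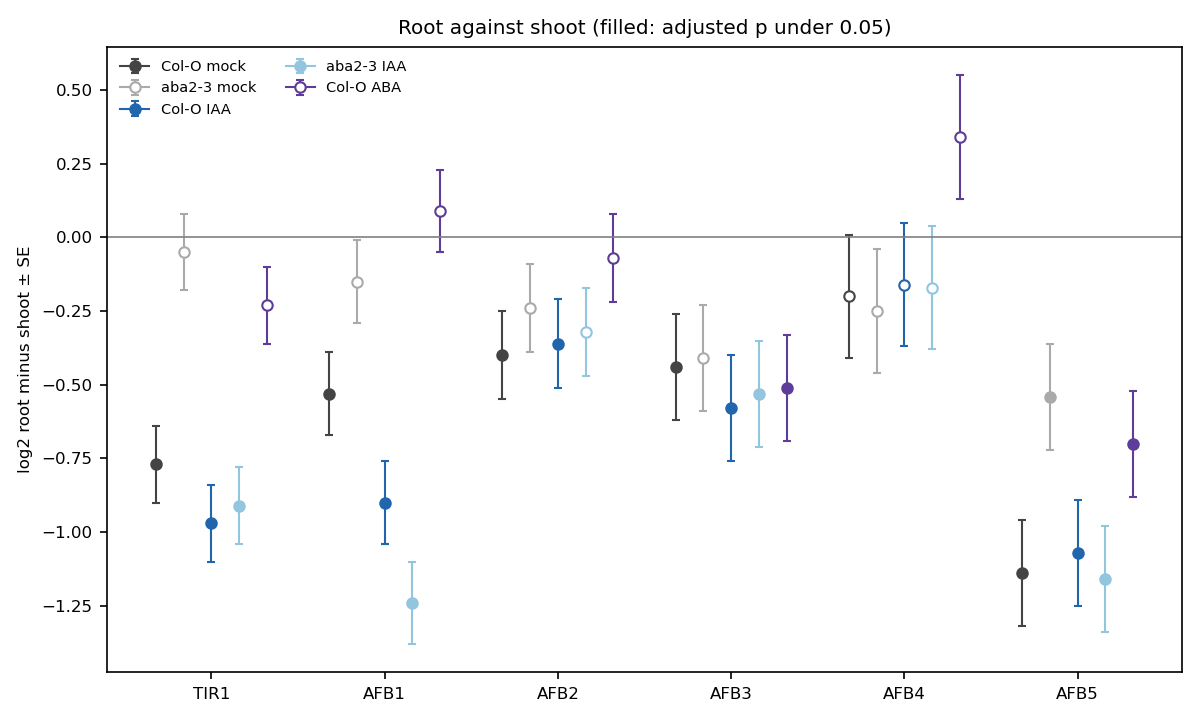
Fitted log2 difference (root minus shoot, ± SE) of each receptor in the 5 combinations of genotype and treatment; filled points have an adjusted p under 0.05. AFB5 is filled and below 0 in every combination, and TIR1 and AFB1 are near 0 in mock-treated aba2-3 (-0.05 and -0.15) and lowest after IAA.

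The makeup of the family pool was described as each gene's share of the summed RPKM of the 6 genes. The sum was 120 ± 16.2 RPKM in Col-O mock roots and 88.3 ± 4.37 RPKM after IAA, and 131 ± 19.0 and 78.5 ± 15.5 RPKM in the aba2-3 roots. In the same order AFB1's share went from 28.5 ± 0.721% to 23.9 ± 2.89% in Col-O roots and from 25.2 ± 2.44% to 17.6 ± 0.791% in aba2-3 roots. TIR1's share went from 19.3 ± 0.424% to 18.0 ± 1.32% in Col-O roots and from 22.9 ± 1.14% to 17.6 ± 1.96% in aba2-3 roots. AFB2's share went the other way, from 22.0 ± 1.75% to 24.4 ± 1.28% in Col-O roots and from 19.9 ± 1.03% to 27.0 ± 1.67% in aba2-3 roots, where its own level did not pass the test: shares sum to a fixed total, so a member's share can grow while its level does not. AFB2 was then the largest component of the pool in aba2-3 IAA roots. In Col-O IAA roots AFB2 also had the largest mean share (24.4 ± 1.28%), close to that of AFB1 (23.9 ± 2.89%).
ABA left the root sum at 120 ± 4.26 RPKM while its makeup differed: TIR1 held 26.3 ± 1.72% against 19.3 ± 0.424% in mock, and AFB3 9.28 ± 1.54% against 13.5 ± 0.361%. In shoots TIR1 held 27.1 ± 2.11% after ABA and 21.3 ± 2.39% in mock, and the sum was 136 ± 6.11 against 185 ± 12.6 RPKM. No test was made on shares or sums.

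**Figure D4:**
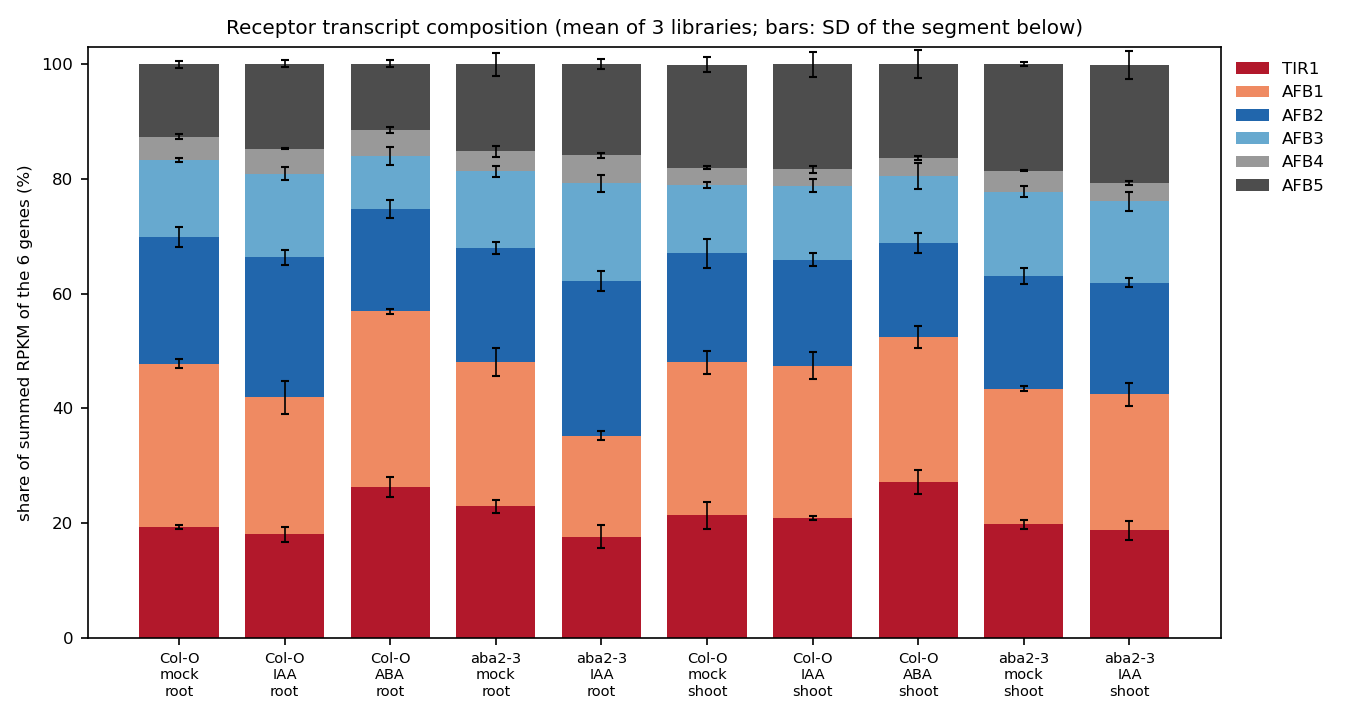
Share of each receptor in the summed RPKM of the 6 genes, in percent, as the mean of 3 libraries per group with the SD of each segment. TIR1 (dark red) and AFB1 (orange) are smallest together in aba2-3 IAA roots (17.6% each), and TIR1 is largest after ABA (26.3% in root, 27.1% in shoot).

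The partners of the receptors in the ubiquitin ligase were read from a list of 14 genes of the SCF core, of cullin modification and of its assembly, and all were tested. In each of Col-O IAA, aba2-3 IAA and Col-O ABA roots 1 of 14 was called, where 5.57%, 11.8% and 15.7% of all genes were called. CUL1, the cullin scaffold, and ASK1, the adaptor that holds the F-box, were called in no hormone or genotype comparison; ASK1 was at 421 ± 2.38 CPM in Col-O mock roots and 470 ± 18.2 CPM in Col-O IAA roots. The exceptions among the 14 were single genes. CSN5A, a catalytic subunit of the COP9 signalosome that removes the ubiquitin-like RUB from cullins, rose in Col-O IAA roots from 14.6 ± 2.04 to 24.0 ± 2.02 CPM (log2 0.72 ± 0.16, adjusted p = 0.0098). It was also higher in aba2-3 than in Col-O mock roots (23.5 ± 6.38 CPM, log2 0.69 ± 0.16, adjusted p = 0.011), and its IAA response in roots differed between the genotypes (-1.03 ± 0.23, adjusted p = 0.027). Its homologue CSN5B rose in ABA roots (log2 0.67 ± 0.20, adjusted p = 0.021), and SGT1B, a co-chaperone needed for TIR1 function, rose in aba2-3 IAA roots from 102 ± 1.81 to 129 ± 2.47 CPM (log2 0.34 ± 0.10, adjusted p = 0.028). In the 5 organ comparisons 1 to 5 of the 14 partners were called higher in the root and 0 to 3 lower, where 49.9% to 56.1% of all genes were called. Between organs SGT1B was called higher in the root in all 5 comparisons (log2 0.31 to 0.64), CSN5A in 3 of 5 (0.53 to 0.71), and RUB1, a ubiquitin-like modifier of cullins, lower in the root in 3 of 5 (-0.60 to -0.73). The partners called in at most 2 organ comparisons were ASK1, AXL, AXR1, CSN5B and RBX1, higher in the root, and ASK2, ECR1, RCE1 and RUB2, lower.

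Of 10 other listed perception genes, 7 passed the filter on low counts. COI1, the jasmonate receptor and nearest F-box relative of the family, was called in no hormone or genotype comparison and lay between 18.9 and 31.8 CPM in the group means. The F-box gene SKP2A, which has been described as an auxin-binding cell-cycle regulator, rose after ABA in both organs, from 8.38 ± 1.22 to 48.8 ± 14.0 CPM in roots (log2 2.54 ± 0.25, adjusted p = 2.4e-08) and from 10.3 ± 1.73 to 37.8 ± 3.38 CPM in shoots (log2 1.89 ± 0.24, adjusted p = 3.6e-06). It was also lower in aba2-3 than in Col-O IAA shoots (6.02 ± 1.56 against 13.1 ± 2.39 CPM, adjusted p = 0.033). In each of these comparisons SKP2A was the 1 of 7 tested genes called, where 15.7%, 9.65% and 1.16% of all genes were called.
The receptor-like kinases TMK1 and TMK3, of a cell-surface auxin pathway, fell in aba2-3 IAA roots (log2 -0.55 ± 0.18, adjusted p = 0.049, and log2 -0.78 ± 0.20, adjusted p = 0.012). TMK1 and TMK4 were lower in aba2-3 than in Col-O mock shoots (log2 -0.71 ± 0.18, adjusted p = 0.031, and log2 -0.66 ± 0.18, adjusted p = 0.043). Of the 7 tested genes, 2 were called in aba2-3 IAA roots and 2 between genotypes in mock shoots, where 11.8% and 2.63% of all genes were called. In the 5 organ comparisons 3 to 4 of the 7 were called lower in the root and 0 to 3 higher, where 49.9% to 56.1% of all genes were called. Between organs TMK1 (log2 -1.50 to -2.35), TMK3 (-0.69 to -1.22) and TMK4 (-0.59 to -1.09) were called lower in the root in all 5 comparisons. COI1 was called higher in the root in 4 of 5 (0.44 to 0.58), with Col-O mock the exception, SKP2A in both aba2-3 comparisons (0.92 in mock and 0.65 in IAA) and ABP1 in aba2-3 IAA (0.75). BHLH77 was called lower in the root in both IAA comparisons. The 2 MIR393 loci were not tested: they held between 0 and 6 counts over the 3 libraries of any group, too few to give a level, and the libraries do not measure mature small RNA. BHLH77, another gene with a miR393 match of 4 differences, was at 50.4 ± 2.42 and 36.8 ± 5.87 CPM in Col-O mock and IAA roots (log2 -0.45 ± 0.15, adjusted p = 0.075).

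Across the 30 libraries, which share depth and organ as common sources of variation, the receptors did not all vary together. Pearson's r of log2(CPM + 1) was 0.90 for TIR1 with AFB1, and 0.85 after each organ's mean was subtracted. It was 0.80 for AFB2 with AFB3 (0.70 after subtraction), 0.84 for AFB3 with AFB5 (0.69) and 0.78 for AFB2 with AFB5 (0.76). For AFB4 with AFB5 it was 0.43 (0.53), although these share 81.4% of aligned coding bases. AFB4 was the least abundant receptor, and its counts may include the antisense neighbour. TIR1 with AFB3 gave 0.50, and 0.18 within organs. Among 13160 genes with a mean of at least 8 CPM, the gene most like both TIR1 (r = 0.913) and AFB1 (r = 0.903) was GH9B1, a glycosyl hydrolase of the cellulase family, followed by DWF1, a brassinosteroid biosynthesis gene, for TIR1 (r = 0.911) and by TIR1 itself for AFB1 (r = 0.895). GH9B1 was again first for TIR1 (0.879) and AFB1 (0.90) within organs. For AFB5 they were AT5G24690 (r = 0.95) and the blue-light receptor CRY1 (r = 0.949), for AFB2 the SBP-box factor SPL12 (r = 0.858) and AT3G57420 (r = 0.825), and for AFB3 AT2G40980 (r = 0.898) and AT1G55360 (r = 0.884). AFB4 had the weakest best matches, PRP39 (r = 0.74) and NFXL2 (r = 0.732). After each organ's mean was subtracted, the second place was ARA12 for TIR1 (0.877) and RLP51 for AFB1 (0.869), and the first and second were SPY (0.843) and SPL12 (0.818) for AFB2, KIPK (0.842) and AT2G40980 (0.838) for AFB3, VP2 (0.784) and RIN3 (0.743) for AFB4, and AT3G14240 (0.853) and SPY (0.844) for AFB5. These are descriptions over 30 libraries of 10 groups and carry no test.

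The windows from 250 bases before to 50 after the RefSeq gene starts were searched on both strands for 2 motifs. The auxin response element TGTCTC was found in AFB5 alone among the 6, 110 bases before its start, and 14.2% of 27443 such windows hold it. The ABA response core ACGTG was found in AFB1 alone, 151 bases before its start, against 26.7% of windows. Absence of these letters from a window says nothing about a factor.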

How the data were processed

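RNA from the 30 libraries was made into cDNA with a SMARTer kit, per the labels' protocols. The submitters' processing notes name STAR, Subread, featureCounts, edgeR, limma and the TAIR10 build; their roles, versions and the strand setting are not given in the sources used here. The deposited tables give gene counts with CPM and RPKM computed by the authors. In 30 of 30 files the deposited CPM equalled the count scaled by the summed counts of the library and the deposited RPKM that CPM per kilobase, within a tolerance of 1e-06. Totals ran from 3871038 to 99263091 counts, and depth sets the precision of AFB4 most.

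Counts were fitted with edgeR 4.0.16 (R 4.3.3) in 1 model of all 30 libraries with a mean per group, TMM scaling (factors 0.849 to 1.146) and filterByExpr, which left 22156 genes. A quasi-likelihood F test gave 20 comparisons, called at a Benjamini-Hochberg adjusted p under 0.05 over all genes. The procedure was tested on simulated data. CPM in the text uses the TMM-scaled library sizes. DESeq2 1.42.0, RLE size factors, other filters, subsets of groups, left-out libraries and a replicate block were alternatives, and library totals were added after seeing the data. Gene symbols and sequences came from RefSeq TAIR10.1, whose table matched 32835 IDs. All members were named, with the genes of the partner and perception lists called in a hormone or genotype comparison and the 2 genes most like each member by Pearson's r. List genes called only between organs were named after their values were seen. The members and lists were chosen with earlier results of these data known.

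The labels say only that treatments were done in triplicate, so p-values measure the spread between these libraries, which may be technical. No replicate pair agreed within sampling noise (chi-square per degree of freedom 6.6 to 192.1 over 30 pairs). Same-numbered libraries deviated together, with every correlation over 0.1, in 1 of 45 pairs of groups, Col-O mock shoot with Col-O IAA shoot (0.45, 0.18 and 0.19). Not every library there correlated best with its own number. The observation comes from the data and not from the labels, and the block changed no receptor call in that comparison. Whether same-numbered root and shoot libraries came from the same seedlings cannot be read from these correlations.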

Additional observations from a re-analysis of the deposited data

Results flagged for a closer look

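The IAA response in aba2-3 differed between root and shoot for TIR1 (difference of log2 changes -0.87 ± 0.18, adjusted p = 0.011, edgeR quasi-likelihood test) and AFB1 (-1.09 ± 0.20, adjusted p = 0.0041), with the larger decline in the root. These are listed because the difference between the organs was itself tested. Without the 7 libraries the differences were -1.01 (adjusted p = 0.0065) and -1.23 (adjusted p = 0.0074).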

How the results depend on the processing

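Of 1860 receptor values under other settings, 1638 kept direction and side of the threshold, 72 lost a call, 20 gained one and 130 changed sign without being called under either setting. The TIR1 and AFB1 calls in IAA roots of both genotypes, and their root-against-shoot differences in aba2-3, were kept under all 8 settings other than left-out libraries. The cause of the changes below was not tested. In ABA roots (2 receptors called) RLE size factors, no filter and omission of the 7 libraries each gave 1, and the compared groups alone 0. In ABA shoots (3 called) omission of the 7 libraries gave 1 and the compared groups alone 0. DESeq2 called 1 between genotypes in mock roots and 2 in mock shoots (0 by edgeR), 2 for the ABA organ difference (0) and 1 for the genotype difference of the IAA root response (0). Between genotypes in IAA roots (1 called) no filter, omission of the 7 libraries and the compared groups alone each gave 0. Between organs of Col-O mock (5 called) no filter and omission of the 7 libraries gave 3 and library totals 2; of Col-O IAA (5) library totals gave 3; of Col-O ABA (2) library totals and the compared groups alone gave 1; of aba2-3 mock (1) a mean count of at least 20 and the compared groups alone gave 2. With ABA, library totals added AFB2 in roots (adjusted p = 0.031) and AFB3 in shoots (adjusted p = 0.033). Between organs of aba2-3 IAA (4 called) RLE size factors, DESeq2 and the minimum mean count of 20 added AFB2 (adjusted p = 0.042, 0.036 and 0.016) and library totals lost AFB3 (adjusted p = 0.06); in Col-O IAA no filter lost AFB2 (adjusted p = 0.092).

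Every value that changed sign was uncalled. Library totals gave AFB1 -0.11 and AFB4 -0.05 in ABA roots; AFB3 -0.06 and -0.01 between genotypes in mock and IAA roots; AFB4 0.02 (Col-O mock) and 0.06 (Col-O IAA), AFB2 0.08 (Col-O ABA) and TIR1 0.04 (aba2-3 mock) between organs; and, for the genotype difference of the IAA response, AFB3 0.05 in roots and AFB3 0.00 and AFB4 0.04 in shoots. This scaling moved the median of all genes by -0.21 in ABA roots, -0.14 in ABA shoots, -0.15 between genotypes in mock roots, and 0.22, 0.22 and 0.15 between the organs of Col-O mock, IAA and ABA. Without the 7 libraries the values between genotypes were AFB1 0.09 and AFB4 0.08 in mock roots, AFB3 -0.03 in mock shoots, AFB2 0.09, AFB4 0.08 and AFB5 0.05 in IAA roots, and AFB4 -0.04 and AFB5 -0.06 in IAA shoots; TIR1 was 0.01 between organs of aba2-3 mock, AFB2 -0.19 for the organ difference of the Col-O IAA response, and AFB3 0.08 (root) and 0.11 (shoot) for the genotype difference of the IAA response. AFB5 under IAA in aba2-3 shoots was 0.00 with DESeq2, RLE size factors and the compared groups alone, and 0.03 under the minimum mean count of 20. For the genotype difference of the root response AFB2 was -0.01 with DESeq2 and RLE size factors and -0.00 with the compared groups alone and the replicate block, and AFB3 0.03 with no filter. For the shoot response AFB4 was 0.00 with RLE size factors and the replicate block, 0.01 with the compared groups alone and under that minimum, and 0.02 with no filter. A mean count of at least 20 gave AFB2 -0.01 and AFB4 -0.02 (Col-O) and AFB4 -0.00 (aba2-3) for the organ difference of the IAA response. Between genotypes in IAA roots no filter gave AFB2 0.02 and AFB4 0.02, and the replicate block AFB4 0.00.

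With each library left out in turn, values that crossed 0 ran from -0.57 to 0.02 (AFB4, IAA in aba2-3 roots), -0.10 to 0.10 (AFB5, IAA in aba2-3 shoots) and -0.20 to 0.02 (TIR1, ABA shoots). Between genotypes they ran from -0.24 to 0.05 (AFB1), -0.11 to 0.13 (AFB2), -0.02 to 0.20 (AFB3) and -0.38 to 0.21 (AFB4) in mock roots; -0.03 to 0.13 (AFB3) and -0.03 to 0.06 (AFB4) in mock shoots; -0.17 to 0.17 (AFB2), -0.08 to 0.28 (AFB3), -0.09 to 0.10 (AFB4) and -0.19 to 0.13 (AFB5) in IAA roots; and -0.06 to 0.00 (AFB2), -0.06 to 0.13 (AFB3), -0.06 to 0.22 (AFB4) and -0.06 to 0.18 (AFB5) in IAA shoots. Between organs of Col-O ABA they ran from -0.03 to 0.09 (AFB1) and -0.20 to 0.00 (AFB2). For the organ difference of the response they ran from -0.06 to 0.21 (AFB2), -0.10 to 0.18 (AFB4) and -0.06 to 0.17 (AFB5) for IAA in Col-O, -0.23 to 0.05 (AFB3) for ABA, and -0.28 to 0.03 (AFB2), -0.30 to 0.03 (AFB3) and -0.23 to 0.36 (AFB4) for IAA in aba2-3. For the genotype difference of the IAA response they ran from -0.14 to 0.20 (AFB2), -0.17 to 0.19 (AFB3) and -0.21 to 0.38 (AFB4) in roots and -0.12 to 0.07 (AFB3) and -0.08 to 0.20 (AFB4) in shoots.

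In the same fits the number of receptors called ran from 1 to 2 (IAA, Col-O root), 2 to 3 (IAA, aba2-3 root), 0 to 2 (ABA root), 0 to 3 (ABA shoot), 0 to 1 (genotypes, IAA root), and between organs 3 to 5 (Col-O mock), 4 to 5 (Col-O IAA), 1 to 2 (Col-O ABA), 0 to 3 (aba2-3 mock) and 3 to 5 (aba2-3 IAA). It ran from 0 to 1 for the ABA organ difference, was 2 throughout for the aba2-3 IAA organ difference and 0 throughout in the other comparisons. The replicate block took the Col-O mock organ count from 5 to 4 (AFB3, log2 -0.44, adjusted p = 0.053) and changed no other receptor call. In 1 of 45 pairs of groups, aba2-3 IAA root with aba2-3 IAA shoot, every library correlated best with its own number. These correlations do not settle which libraries are paired.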
